A study of Mus musculus with 2 samples.

Results

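The data describe 9 genes of mouse sensory ganglion neurons in total RNA of the neural tube, the embryonic structure that becomes brain and spinal cord, at embryonic day 14.5. The genes are Avil, P2rx3, Trpv1, Trpm8, Trpa1, Piezo2, Mrgprd, Runx1 and Runx3. They were looked up by Ensembl identifier in the gene table of each library, and all 9 were found among 43346 gene rows. The list was put together with the values of these libraries known, so the levels of the genes and their ratio between the libraries are given as a description, with no test.

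There was 1 group of 2 libraries, both from the B6NCrl strain with no genotype or treatment given. Replicate 2 was a single neural tube from pup 1 of pregnant female 2 and replicate 1 a single tube from pup 1 of pregnant female 1, and each library was made from 10 ng of RNA with spike-in RNA added. Expected counts over all rows summed to 26025302 in replicate 2 and 33360108 in replicate 1. The labels give the sex as pooled male and female for both. Xist, the RNA of the inactive X chromosome, had 13 counts in replicate 2 and 25148 in replicate 1, whereas 4 Y-linked genes (Eif2s3y, Kdm5d, Uty and Ddx3y) summed to 4836 counts in replicate 2 and 1 count in replicate 1. The 2 libraries therefore differ from each other in sex-linked RNA, which goes against that label. Pup, mother and sex-linked RNA cannot be told apart in a single pair of libraries. Both libraries carried neuronal RNA, since all 13 pan-neuronal genes listed were above 1 TPM in each, though such genes do not identify the neural tube. Of 11 genes listed for dorsal horn neurons of the spinal cord, 10 were at 1 TPM or more in each library. TPM is a level per transcript length, scaled to the same sum in each library, so it can be compared between genes.

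Sensory ganglia lie beside the neural tube and hold the cell bodies of the neurons that carry pain, temperature, itch, touch and limb position into the spinal cord. The neurons come from the neural crest and split into classes under transcription factors of the Runx family: Runx1 acts in neurons for pain and temperature, Runx3 in the proprioceptors that report muscle stretch. Each class then carries its own receptors and ion channels, and in mouse ganglia Trpv1 is known to appear earlier in development than Trpm8, Trpa1 or Mrgprd. The cell bodies are outside the neural tube, although the axons of these neurons grow into it.

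Of the 9 genes, 5 reached 1 TPM in replicate 2, namely Avil, P2rx3, Piezo2, Runx1 and Trpv1, against Piezo2 alone in replicate 1. The summed level of all 9 was 65.5 TPM in replicate 2 and 6.21 TPM in replicate 1. Piezo2 made up 23.0% of that sum in replicate 2 and 75.2% in replicate 1. Ratios of replicate 2 to replicate 1 were taken on expected counts and TMM-scaled library sizes. A mean count of at least 10 was reached by 7 of the 9 genes, and all 7 were at least 2-fold higher in replicate 2. Of all 17623 gene rows at that count, 5.63% were at least 2-fold higher in replicate 2 and 3.06% had 2-fold or more in replicate 1. The median log2 ratio was 4.43 over the 7 genes and 0.00 over all of those rows. The genes were chosen on this ratio, and Avil, Trpv1 and Runx3, each under 10 counts in replicate 1, passed the filter only through replicate 2. Nothing is therefore read from the count of 7. By posterior mean TPM 6 genes reached 1 TPM in replicate 2, with Runx3 at 1.66, and 2 in replicate 1, with P2rx3 at 1.09. By TPM, Runx3, Trpa1, Mrgprd and Trpm8 stayed under 1 in both libraries, so the name of the list describes where its genes are known to work and not 9 genes found at a level here.

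**Figure D1:**
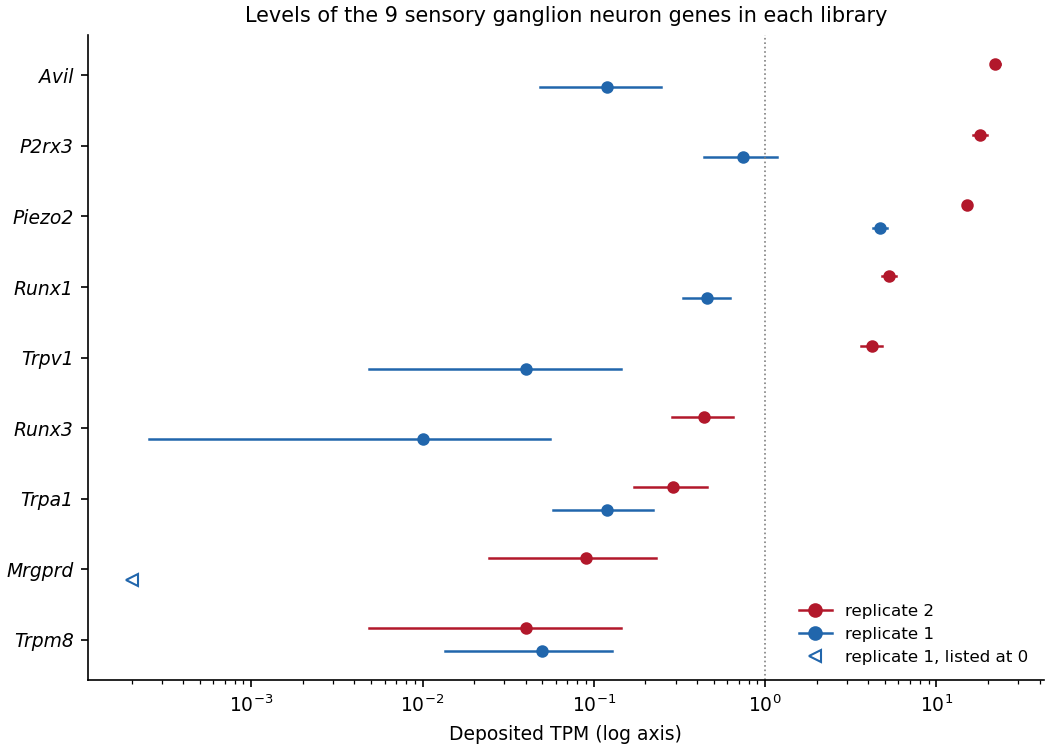
Deposited TPM (log axis) of each of the 9 genes in replicate 2 (red, upper point) and replicate 1 (blue, lower point), with bars for the exact 95% Poisson interval of the count and a dotted line at 1 TPM. Avil lies at 22.11 TPM in replicate 2 and 0.12 TPM in replicate 1, the points of Trpm8 overlap, and Mrgprd is listed at 0 in replicate 1 (open triangle, no position on the axis).

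Avil encodes advillin, an actin-binding protein of the gelsolin and villin family that is largely confined to peripheral sensory neurons. The gene (ENSMUSG00000025432.7) lies on the plus strand of chromosome 10 from 127000709 to 127020994 (GRCm38). It had 915 counts and 22.11 TPM [95% Poisson interval 20.7 to 23.6] in replicate 2, against 7 counts and 0.12 TPM [0.0482 to 0.247] in replicate 1. Avil was thus above 84.4% of gene rows in replicate 2 and above 50.6% in replicate 1. Many rows lie near 0, and in replicate 1 the 0.01 TPM of Runx3, from 1 count, was above 45.2% of rows. Its count, scaled for library size, was 166-fold [exact 95% interval 80.0 to 413] higher in replicate 2, and 13 of the 17623 rows had a larger log2 ratio. The log2 ratio, 7.27 on counts, was 6.24 by deposited FPKM and 5.23 by the deposited posterior mean TPM, both with a pseudocount of 0.1 and both below that interval. The mean level was 11.1 ± 15.5 TPM (SD, n = 2), an SD larger than the mean. All of these intervals cover counting error only. In bulk RNA, fewer cells of a type and less RNA per cell cannot be told apart.

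The reads of Avil were assigned almost entirely to the full-length transcript Avil-201, which took 91.63% of the gene's TPM in replicate 2 and 100% in replicate 1. Avil shares 165 of its 3398 exonic bases with Tsfm, a mitochondrial translation factor gene on the other strand, and the strand setting of the counting is not given in the sources used here. Tsfm was at 53.03 TPM in replicate 2 and 48.41 TPM in replicate 1, a ratio of 1.06. Which gene the reads in the shared bases came from was not tested. The 300 bases around the RefSeq start of Avil (GRCm38.p6, chr10:127000459-127000758, plus strand) are shown because this gene had the largest ratio of the 9. Capitals mark a match to the Runx core motif TGTGGT, searched on both strands together with TAATTA, a homeodomain core, and CAGCTG, an E-box.

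Avil: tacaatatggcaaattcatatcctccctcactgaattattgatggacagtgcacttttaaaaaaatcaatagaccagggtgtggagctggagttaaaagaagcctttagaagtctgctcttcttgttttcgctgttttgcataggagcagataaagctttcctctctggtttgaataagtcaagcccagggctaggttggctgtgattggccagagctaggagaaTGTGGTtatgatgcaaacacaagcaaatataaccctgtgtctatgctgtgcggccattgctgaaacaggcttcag

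The match starts 25 bases before the RefSeq start. The window has a GC content of 43.0%, against a median of 52.7% over 32851 mouse windows of the same length. TGTGGT was found in 16.8% of all those windows, so a match by itself is common. A match is a description of the letters, not a binding site.

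Of the relatives of Avil, 5 of the 7 listed had a mean count of at least 10 and 2 were at least 2-fold higher in replicate 2. Svil, the supervillin gene, was 4.40-fold [3.84 to 5.05] higher, and Capg, an actin-capping gene, 2.68-fold [1.96 to 3.71] higher. Gsn, gelsolin itself, was 1.92-fold [1.75 to 2.11] higher, and Vill, villin-like, had a ratio of 1.26 [0.966 to 1.63]. The relatives thus lay at smaller ratios than Avil, and none of the 5 intervals overlaps its own.

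P2rx3 encodes the ATP-gated channel subunit of nociceptors, the neurons that report tissue damage. The gene (ENSMUSG00000027071.10) lies on the minus strand of chromosome 2 from 84998583 to 85037462. It had 451 counts and 17.97 TPM [16.3 to 19.7] in replicate 2, against 18 counts and 0.74 TPM [0.439 to 1.17] in replicate 1. The count was 31.7-fold [19.8 to 54.0] higher in replicate 2, a log2 ratio of 4.95, which was 4.25 by FPKM and 3.92 by posterior mean TPM. The deposited gene models also split differently in the libraries. The coding transcript P2rx3-201 held 93.79% of the gene's TPM in replicate 2 and 36.35% in replicate 1, whereas the short non-coding transcript P2rx3-204 held 3.15% in replicate 2 and 45.15% in replicate 1. With 9.37 estimated counts for P2rx3-201 in replicate 1, against 432.32 in replicate 2, the split in replicate 1 rests on very few reads. P2rx3 shares 51 of its 2789 exonic bases with Ssrp1, a chromatin factor gene on the other strand at 144.68 TPM in replicate 2 and 118.59 TPM in replicate 1.

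P2rx3 stood 2.75-fold above P2rx2, the subunit it can pair with, in TPM in replicate 2 and at 0.105 times P2rx2 in replicate 1. P2rx2 itself was at 6.54 TPM in replicate 2 and 7.02 TPM in replicate 1, so the order of these 2 subunits turned with P2rx3. P2rx2 was named after its values were seen. Among the 6 other P2X genes, each above a mean count of 10, 1 was at least 2-fold higher in replicate 2 (3 under spike-in scaling). That was P2rx1, a subunit of smooth muscle and platelets, at 18 counts in replicate 2 and 8 counts in replicate 1. P2rx7, an immune cell receptor, was 1.72-fold [1.36 to 2.19] higher, P2rx5 had a ratio of 1.45 [0.662 to 3.20] and P2rx6 had the lowest at 0.824 [0.596 to 1.13].

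Trpv1 encodes the channel opened by heat and capsaicin. The gene (ENSMUSG00000005952.11) lies on the plus strand of chromosome 11 from 73234292 to 73261242. It had 195 counts and 4.19 TPM [3.62 to 4.82] in replicate 2, against 2 counts and 0.04 TPM [0.00484 to 0.144] in replicate 1. Replicate 2 thus had 123-fold [33.7 to 1027] the count of replicate 1, the wide interval set by the 2 counts. The log2 ratio, 6.63 on counts, was 4.94 by deposited TPM, 4.27 by FPKM and 3.79 by posterior mean TPM, each with that pseudocount. Its reads in replicate 2 were split between Trpv1-202, with 78.06% of the gene's TPM, and Trpv1-203, with 21.94%. The 2 counts of replicate 1 were assigned to Trpv1-201 alone, a transcript with none in replicate 2. No statement on isoforms can rest on 2 counts. The window around the RefSeq start (chr11:73233899-73234198, plus strand) is shown because, like that of Avil, it holds 1 TGTGGT match close to the start, 50 bases before it. Capitals mark that match and a CAGCTG match, a motif found in 16.3% of all windows.

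Trpv1: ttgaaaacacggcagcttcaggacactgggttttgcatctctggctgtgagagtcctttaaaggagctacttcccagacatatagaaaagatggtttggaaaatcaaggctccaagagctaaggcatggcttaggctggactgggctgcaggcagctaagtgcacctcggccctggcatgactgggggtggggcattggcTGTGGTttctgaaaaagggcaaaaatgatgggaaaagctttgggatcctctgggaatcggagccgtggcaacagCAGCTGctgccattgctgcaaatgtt

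The 2 windows differ in base composition, with 51.7% GC in that of Trpv1 and 43.0% in that of Avil. The other channels of the family lay at smaller ratios. None of the 4 other Trpv genes that reached a mean count of 10 was 2-fold higher in either library, though 1 passed in replicate 2 under spike-in scaling. The highest ratio was 1.56 [0.786 to 3.16] for Trpv4, an osmosensitive channel, and the lowest 0.718 [0.457 to 1.11] for Trpv6, a calcium channel of epithelia. Trpv2 was at 20.37 TPM in replicate 2 and 20.29 TPM in replicate 1, so Trpv1 stood at 0.206 times the level of Trpv2 in replicate 2 and at 0.00197 times in replicate 1.

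Trpa1 encodes the channel for irritants such as mustard oil. The gene (ENSMUSG00000032769.4, chromosome 1, 14872648 to 14918862, minus strand) had 18 counts and 0.29 TPM [0.172 to 0.458] in replicate 2, against 10 counts and 0.12 TPM [0.0575 to 0.221] in replicate 1. The ratio of 2.28 [0.998 to 5.53] has an interval that reaches just below 1, so at this depth a difference between the libraries was not detectable for Trpa1. Of the distant relatives in the Trpc family, 6 of 7 had a mean count of at least 10, and none was 2-fold higher in either library, from 0.612 for Trpc7 to 0.925 for Trpc6.

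Trpm8 encodes the channel for cold and menthol. The gene (ENSMUSG00000036251.12, chromosome 1, 88277661 to 88389293, plus strand) had 2 counts and 0.04 TPM [0.00484 to 0.144] in replicate 2, against 4 counts and 0.05 TPM [0.0136 to 0.128] in replicate 1. It was the only gene of the 9 with the lower count in replicate 2, and its ratio of 0.633 has an interval of 0.0573 to 4.42, which leaves the direction undetermined. All of its counts were assigned to Trpm8-204, which starts inside the gene. Of the other Trpm genes, 6 of 7 had a mean count of at least 10 and none was 2-fold higher in either library (1 in replicate 2 under spike-in scaling), from 0.600 [0.502 to 0.715] for Trpm2 to 1.91 [1.32 to 2.80] for Trpm5, the taste cell channel.

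Mrgprd encodes a G protein-coupled receptor of nociceptors that reach the skin. The gene (ENSMUSG00000051207.6, chromosome 7, 145314835 to 145324086, plus strand) had 4 counts and 0.09 TPM [0.0245 to 0.230] in replicate 2 and 0 counts in replicate 1. Against a floor of 3 counts in replicate 1 this is at least 1.69-fold higher in replicate 2, and the lower bound of the exact interval, 0.836, lies below 1. Of 15 listed relatives, 11 had 0 counts in both libraries and 2 had a mean count of at least 10. Mrgprf was 25.3-fold [8.26 to 126] higher in replicate 2, at 60 counts in replicate 2 and 3 counts in replicate 1, and Mrgpre had a ratio of 0.851 [0.738 to 0.980].

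Piezo2 encodes the stretch-gated channel of touch receptors and proprioceptors. The gene (ENSMUSG00000041482.12) lies on the minus strand of chromosome 18 from 63010213 to 63387183. It had 1158 counts and 15.07 TPM [14.2 to 16.0] in replicate 2, against 459 counts and 4.67 TPM [4.25 to 5.12] in replicate 1. Its ratio of 3.19 [2.86 to 3.57] was the tightest of the 9, and its interval lies below those of Avil, P2rx3, Runx1, Trpv1 and Runx3. Piezo2 was the gene of the 9 with the highest level in replicate 1 and the third highest in replicate 2. The mean was 9.87 ± 7.35 TPM (SD, n = 2).

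The level of Piezo2 was spread over many annotated transcripts. The full-length transcript Piezo2-202 held 28.20% of the gene's TPM in replicate 2 and 21.94% in replicate 1, at 4.25 TPM and 676.01 estimated counts in replicate 2, against 1.02 TPM and 220.55 estimated counts in replicate 1. Piezo2-205, a short transcript at the 3′ end annotated as a target of nonsense-mediated decay, held 42.26% in replicate 2 and 22.99% in replicate 1. The short coding transcript Piezo2-201 went the other way in share, with 11.94% in replicate 2 and 33.13% in replicate 1, while its level was 1.80 TPM in replicate 2 and 1.55 TPM in replicate 1. The difference between the libraries in the gene's TPM thus came mostly from Piezo2-202 and Piezo2-205, at 6.37 TPM in replicate 2 and 1.07 TPM in replicate 1 for the second of these. Piezo1, the only close relative and a channel of blood vessels and other stretched tissues, was at 2.51 TPM in replicate 2 and 0.94 TPM in replicate 1, a ratio of 2.83 [2.20 to 3.67] that overlaps the interval of Piezo2.

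**Figure D2:**
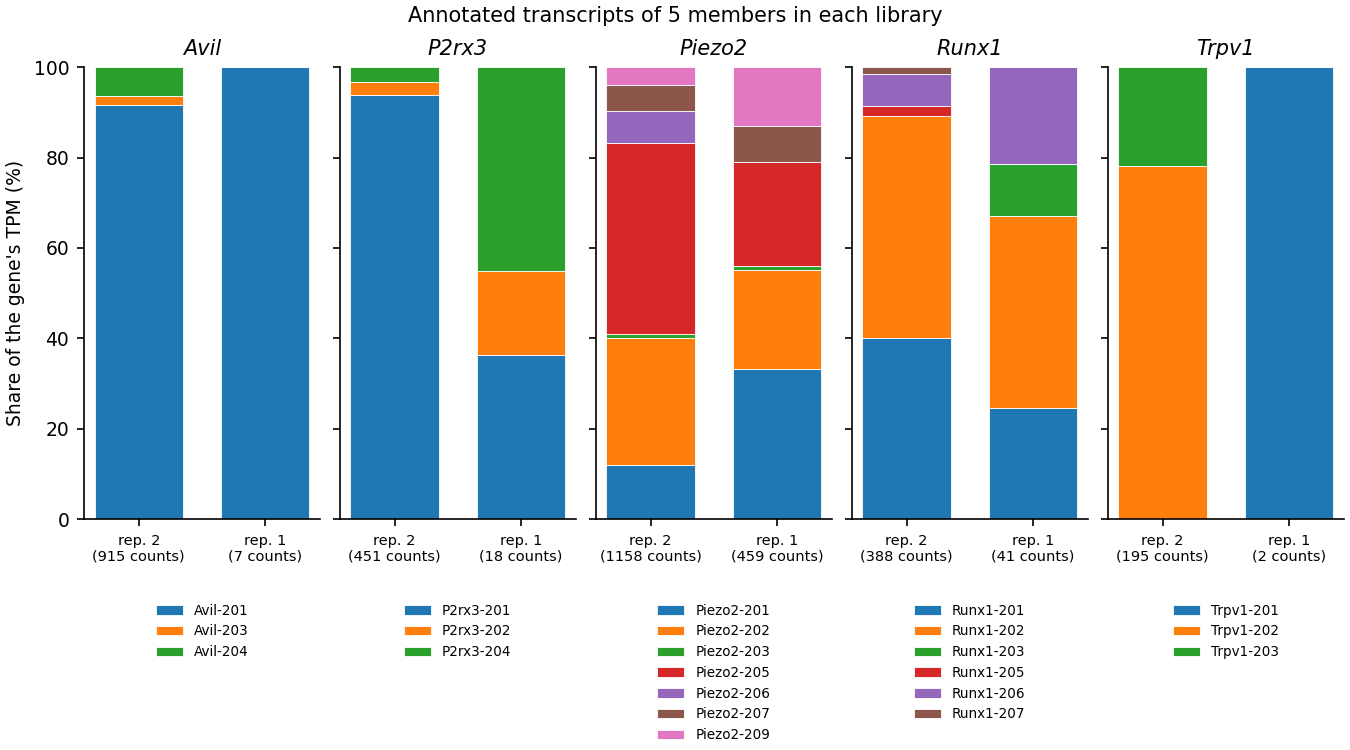
Share of the gene's deposited TPM (percent) held by each annotated transcript in replicate 2 (left bar) and replicate 1 (right bar) for the 5 genes at 1 TPM or more in replicate 2, with the gene's counts under each bar. Runx1-201 and Runx1-202 hold 40.12% and 49.04% in replicate 2, and the bars of Avil and Trpv1 in replicate 1 rest on 7 and 2 counts.

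Runx1 encodes a DNA-binding factor of nociceptors that is also used in blood cells. The gene (ENSMUSG00000022952.12) lies on the minus strand of chromosome 16 from 92601466 to 92826149. It had 388 counts and 5.29 TPM [4.78 to 5.84] in replicate 2, against 41 counts and 0.46 TPM [0.330 to 0.624] in replicate 1. The count was 12.0-fold [8.67 to 17.0] higher in replicate 2, a log2 ratio of 3.57, which ran from 2.61 by posterior mean TPM to 4.12 under spike-in scaling. Runx3 encodes the related factor of proprioceptors (ENSMUSG00000070691.6, chromosome 4, 135120652 to 135177990, plus strand). It had 25 counts and 0.44 TPM [0.285 to 0.650] in replicate 2, against 1 count and 0.01 TPM [0.000253 to 0.0557] in replicate 1, a ratio of 31.7 [5.18 to 1300]. Runx1 stood 12.0-fold above Runx3 in TPM in replicate 2, but 3.52-fold by posterior mean TPM, and the interval of the Runx3 ratio holds that of Runx1 whole.

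Both genes have 2 promoters far apart, a distal and a proximal one, which give proteins that differ at the start. Transcripts from the 2 promoters of Runx1 were found at similar levels in replicate 2. Distal Runx1-201 was at 2.12 TPM in replicate 2 and 0.11 TPM in replicate 1, and proximal Runx1-202 at 2.60 TPM in replicate 2 and 0.20 TPM in replicate 1. Their shares of the gene's TPM were 40.12% and 49.04% in replicate 2 and 24.59% and 42.44% in replicate 1, in that order of transcripts. The counts behind the distal transcript were 183.17 in replicate 2 and 13.21 in replicate 1. For Runx3, all 25 counts of replicate 2 and the 1 count of replicate 1 were assigned to the distal transcript Runx3-201, and the proximal Runx3-202 had 0. These are the quantifier's estimates, since most of each transcript is shared with its partner.

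The first 60 coding bases of each are shown because the 2 kinds of transcript begin their coding sequence differently. They come from the GENCODE release M21 transcripts, whose lengths equal those in the deposited tables. How far into the 60 bases the 2 kinds differ within a gene was not measured, and later bases may be common to both. Capitals mark bases identical at the same position in the transcript of the same kind from the other gene.

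Runx1-201, distal: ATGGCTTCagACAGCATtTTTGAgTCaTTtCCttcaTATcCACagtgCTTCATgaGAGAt
Runx3-201, distal: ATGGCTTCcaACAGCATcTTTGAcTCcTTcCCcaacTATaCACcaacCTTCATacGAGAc
Runx1-202, proximal: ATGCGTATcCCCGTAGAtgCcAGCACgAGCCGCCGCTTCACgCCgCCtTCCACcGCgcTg
Runx3-202, proximal: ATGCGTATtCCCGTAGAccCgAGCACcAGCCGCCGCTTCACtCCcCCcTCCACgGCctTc

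The distal starts share 42 of 60 bases and the proximal starts 48 of 60. The start codons of Runx1 lie at 92825646 for the distal and 92695753 for the proximal transcript, and those of Runx3 at 135121106 and 135152772. The promoter windows of the 2 genes follow the same split. The distal window of each (Runx1 chr16:92826025-92826324, minus strand, and Runx3 chr4:135120395-135120694, plus strand) holds a pair of Runx core matches 2 bases apart in the same direction, in capitals, on the strand opposite to TGTGGT. The proximal window of Runx1 (chr16:92697280-92697579, minus strand) is shown for contrast.

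Runx1 distal window: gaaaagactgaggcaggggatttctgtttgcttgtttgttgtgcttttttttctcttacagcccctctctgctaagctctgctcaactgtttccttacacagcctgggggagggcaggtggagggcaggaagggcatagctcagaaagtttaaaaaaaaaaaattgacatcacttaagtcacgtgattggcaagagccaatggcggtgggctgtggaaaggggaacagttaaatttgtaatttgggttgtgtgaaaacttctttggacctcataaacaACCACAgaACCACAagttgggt
Runx3 distal window: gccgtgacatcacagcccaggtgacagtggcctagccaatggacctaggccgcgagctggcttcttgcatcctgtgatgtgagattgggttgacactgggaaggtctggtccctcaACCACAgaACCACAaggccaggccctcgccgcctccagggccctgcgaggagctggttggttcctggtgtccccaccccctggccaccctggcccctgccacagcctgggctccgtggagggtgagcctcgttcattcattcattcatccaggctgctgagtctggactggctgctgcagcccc
Runx1 proximal window: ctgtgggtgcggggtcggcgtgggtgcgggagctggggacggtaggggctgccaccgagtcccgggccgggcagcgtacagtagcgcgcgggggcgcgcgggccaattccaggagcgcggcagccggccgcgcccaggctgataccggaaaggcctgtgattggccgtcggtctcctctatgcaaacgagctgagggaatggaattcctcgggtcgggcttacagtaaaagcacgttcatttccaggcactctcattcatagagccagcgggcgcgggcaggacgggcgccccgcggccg

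The pair starts 28 bases after the RefSeq start in Runx1 and 134 bases before it in Runx3. A pair with this spacing and direction was found in 7 of 32851 windows (0.0213%), and the single window of Runx2 was another of the 7. The spacing was searched for after these sequences were seen. The proximal windows of Runx1 and Runx3 hold no match, with 35 and 45 CpG dinucleotides and 69.0% and 77.3% GC. The distal windows have 2 and 8 CpG dinucleotides and 45.0% and 63.7% GC, against medians of 7 and 52.7% over all windows. In all, 4 of the 8 windows found for 6 of the 9 genes hold TGTGGT. The homeodomain core TAATTA was found in 1, that of Trpm8, and in 5.29% of all windows. The window of Mrgprd holds none of the 3 motifs. No window of P2rx3, Piezo2 or Trpa1 was used.

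The third Runx gene and the partners of the family lay at smaller ratios. Runx2, the bone factor, had 37 counts in replicate 2 and 33 counts in replicate 1, a ratio of 1.42 [0.864 to 2.34]. Cbfb, the subunit that all Runx factors bind DNA with, was 1.70-fold [1.59 to 1.83] higher in replicate 2, at 46.60 TPM in replicate 2 and 25.72 TPM in replicate 1. The co-repressor genes Tle3 and Tle2 had ratios of 1.22 [1.13 to 1.33] and 0.846 [0.765 to 0.935]. None of the 7 listed was 2-fold higher in either library, against 2 in replicate 2 under spike-in scaling.

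Over all 8 families, 37 of 55 relatives had a mean count of at least 10, and 5 of them (13.5%) were at least 2-fold higher in replicate 2, against 5.63% of all rows. Under spike-in scaling 12 of the 37 were, against 14.0% of all rows, and at a mean count of 100 it was 2 of 25, against 3.06%. The 5 were Capg, Svil, P2rx1, Piezo1 and Mrgprf. None was 2-fold higher in replicate 1, and the median log2 ratio was 0.18.

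**Figure D3:**
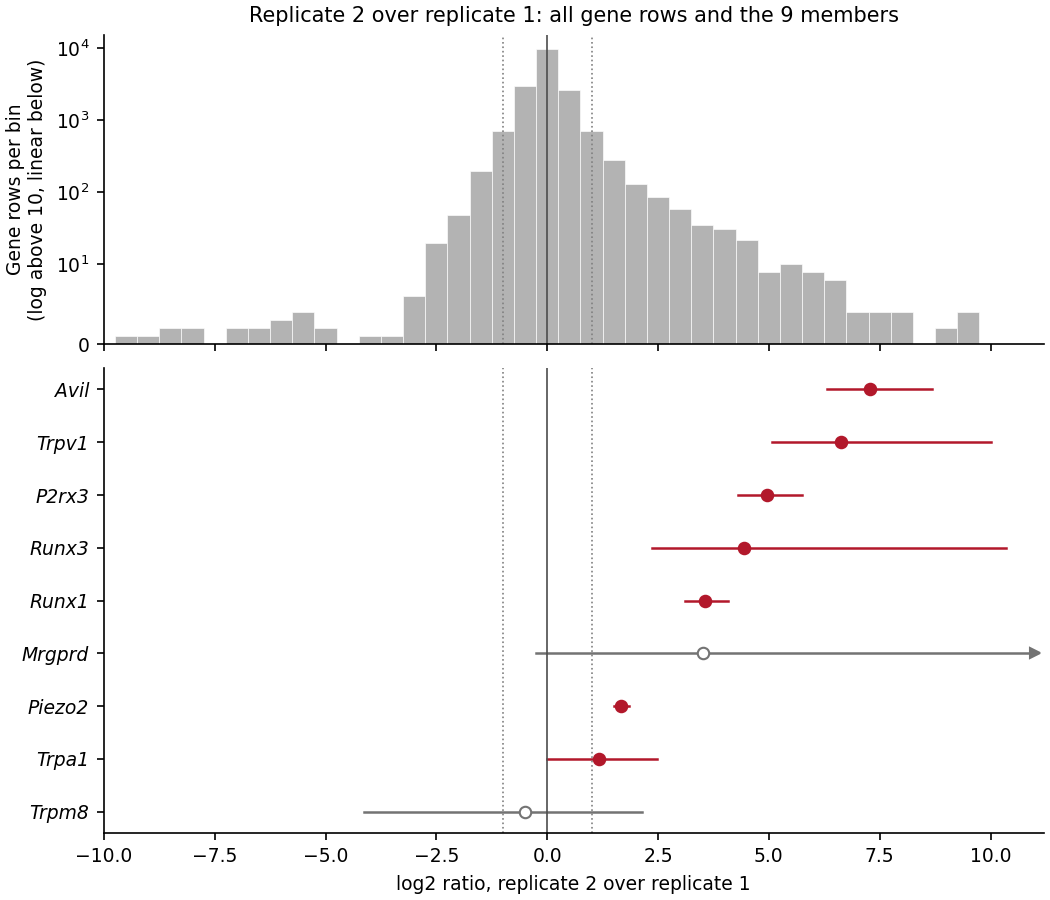
Upper panel, number of gene rows with a mean count of at least 10 by log2 ratio of replicate 2 to replicate 1 (bins of 0.5, axis linear below 10 and log above). Lower panel, the log2 ratio of each of the 9 genes (points, with a prior count of 0.5) and its exact 95% interval from the counts without a prior (lines). Open points mark the 2 genes under the count filter, the arrow an interval with no upper bound, and dotted lines 2-fold. Avil and Trpv1 lie at 7.27 and 6.63.

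Within a library, some neighbours in the order of levels had counting intervals that lay apart and others did not. These intervals leave out error in assigning reads to genes. In replicate 2 the order Avil, P2rx3, Piezo2 and then Runx1 had neighbours whose counting intervals did not overlap. Runx1 and Trpv1 overlapped, Trpv1 lay clear of Runx3, and Runx3, Trpa1, Mrgprd and Trpm8 each overlapped the next. In replicate 1 Piezo2 lay clear of P2rx3, P2rx3 overlapped Runx1, Runx1 lay clear of Avil, and Avil, Trpa1, Trpm8, Trpv1 and Runx3 each overlapped the next. The deposited bounds of the posterior TPM were wider for some of these genes. By them P2rx3 (16.2 to 19.7) and Piezo2 (13.5 to 16.4) overlapped in replicate 2. Runx1 (0.468 to 1.38) and Avil (0.128 to 0.995) overlapped in replicate 1, so the order within these pairs depends on the interval used.

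Other genes listed for the same neurons included some with large ratios and some near 1. These lists were not restricted to genes absent from neurons of the neural tube. Which cells the RNA of each listed gene came from was not tested. Of the 15 listed nociceptor genes that reached a mean count of 10, 5 were 2-fold or more higher in replicate 2 (8 under spike-in scaling), and none in replicate 1, with a median log2 ratio of 0.67. Scn10a, a sodium channel of nociceptors, had 706 counts and 7.47 TPM in replicate 2, against 3 counts and 0.02 TPM in replicate 1, a ratio of 298 [102 to 1449]. Gfra3, the artemin receptor, was 12.6-fold [9.59 to 16.8] higher in replicate 2. The peptide gene Calca was lower in replicate 2, at 0.671 [0.566 to 0.793] times. Of the 20 listed, 11 were at or above 1 TPM in replicate 1, so many of these genes are also present in a library where Avil and Scn10a are under 1 TPM.

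Transcription factors of ganglion neurons were split too. Of 15, each with a mean count of at least 10, 6 were 2-fold or more higher in replicate 2, and none in replicate 1, with a median log2 ratio of 0.31. Prdm12, needed for nociceptors, was 15.3-fold [11.1 to 21.7] higher and Isl2, also used by motor neurons, 6.88-fold [5.64 to 8.46]. Cux2 was lowest at 0.789 [0.743 to 0.838] times. Of the 12 mechanoreceptor and proprioceptor genes, 2 had 2-fold or more in replicate 2 and the median log2 ratio was -0.02. Pvalb, a calcium buffer of proprioceptors, had 56 counts in replicate 2 and 8 counts in replicate 1, a ratio of 8.86 [4.20 to 21.5]. Etv1, a proprioceptor factor, was 2.13-fold [1.93 to 2.35] higher, Spp1 was 1.56-fold [1.24 to 1.98] higher, and Mafa lay at 0.595 [0.422 to 0.829] times. Etv1 and 2 other genes stand in this list and in the list of transcription factors.

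Markers of other cells outside the neural tube differed beside the 9 genes, and their part in the ratios was not tested. All 13 genes listed for meninges and fibroblasts had 2-fold or more in replicate 2, with a median log2 ratio of 4.15 and summed levels of 1207 TPM in replicate 2 and 61.8 TPM in replicate 1. Their ratios ran from 5.13 for Dcn, a matrix proteoglycan gene, to 48.4 for Col3a1, a collagen gene, with 42.9 for Slc6a13 and 41.7 for Lum. Of 13 genes of satellite glia and Schwann cells, 8 had 2-fold or more in replicate 2, with a median of 1.55 and sums of 1972 TPM in replicate 2 and 1836 TPM in replicate 1, of which Fabp7, also a radial glia gene, had 1812.43 TPM in replicate 2 and 1771.63 TPM in replicate 1. Cdh19 had 112 counts in replicate 2 and 0 counts in replicate 1. That is 47.3-fold higher against a floor of 3 counts, and the lower bound of the exact interval is 37.8. Egr2 was 11.4-fold [4.09 to 44.1] higher.

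Of 6 autonomic genes that reached a mean count of 10, 2 were 2-fold or more higher in replicate 2, with a median of -0.08. Levels summed over the list were 454 TPM in replicate 2 and 458 TPM in replicate 1. Most of these sums was Npy, with 403.24 TPM in replicate 2 and 427.54 TPM in replicate 1. Th, which makes catecholamines, was 15.9-fold [11.8 to 22.0] higher and Dbh, the enzyme of noradrenaline synthesis, 6.02-fold [2.00 to 24.3], at 19 counts in replicate 2 and 4 counts in replicate 1. The ratio was 1.00 [0.709 to 1.41] for Chrnb4 and 0.742 [0.471 to 1.15] for Phox2a. Hand2, another gene of this list, had 1 count in replicate 2 and 0 counts in replicate 1, and was named after its values were seen.

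Runx1 and Runx3 are also blood cell genes. Of 15 genes listed for microglia and blood cells, 13 reached a mean count of 10. Of these 13, 6 had 2-fold or more in replicate 2 (11 under spike-in scaling), with a median of 0.77. Among the fewer genes that reached a mean count of 100 it was 3. Sums over all 15 were 198 TPM in replicate 2 and 105 TPM in replicate 1. The ratios ran from 0.965 [0.686 to 1.35] for Itga2b to 4.60 [2.74 to 8.09] for Itgam, with 3.15 for Fcer1g and 2.50 for Cd68. The T cell gene Cd3e had 2 counts in replicate 2 and 5 counts in replicate 1, and the red cell factor gene Gata1 had 1 count in each. Cartilage is another tissue that uses Runx factors. Of 9 cartilage genes listed, 7 reached a mean count of 10, and 2 of these were at least 2-fold higher in replicate 2 (Cnmd at 10.7 and Col2a1 at 2.13). The median was 0.35, and sums over all 9 were 46.6 TPM in replicate 2 and 21.0 TPM in replicate 1. Matn1 had 0 counts in both.

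Lists for neurons in general, for the dorsal horn and for motor neurons stand beside these, and the first is not specific to the neural tube. None of the 13 pan-neuronal genes was 2-fold higher in either library (1 in replicate 2 under spike-in scaling), with a median log2 ratio of -0.08, sums of 6496 TPM in replicate 2 and 6183 TPM in replicate 1, and ratios from 0.727 for Snap25 to 1.56 for Nefm. Of 11 genes listed for dorsal horn neurons, 10 had a mean count of at least 10. None of these 10 was 2-fold higher either, with a median of -0.22 and ratios from 0.672 for Gad1 to 1.02 for Lbx1. Sums over all 11 were 315 TPM in replicate 2 and 353 TPM in replicate 1. Of 8 motor neuron genes, Isl2 and Prph, an intermediate filament gene of peripheral axons, were at least 2-fold higher in replicate 2 (6.88 and 4.20). The median was 0.11 and sums were 370 TPM in replicate 2 and 145 TPM in replicate 1. Most of the difference between these sums was Prph, with 238.75 TPM in replicate 2 and 53.25 TPM in replicate 1. Scaling by the spike-ins in place of the genes raised the median log2 ratio of all rows by 0.55, and the negative medians in this account turn positive under it, so those directions hold only relative to other genes.

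**Figure D4:**
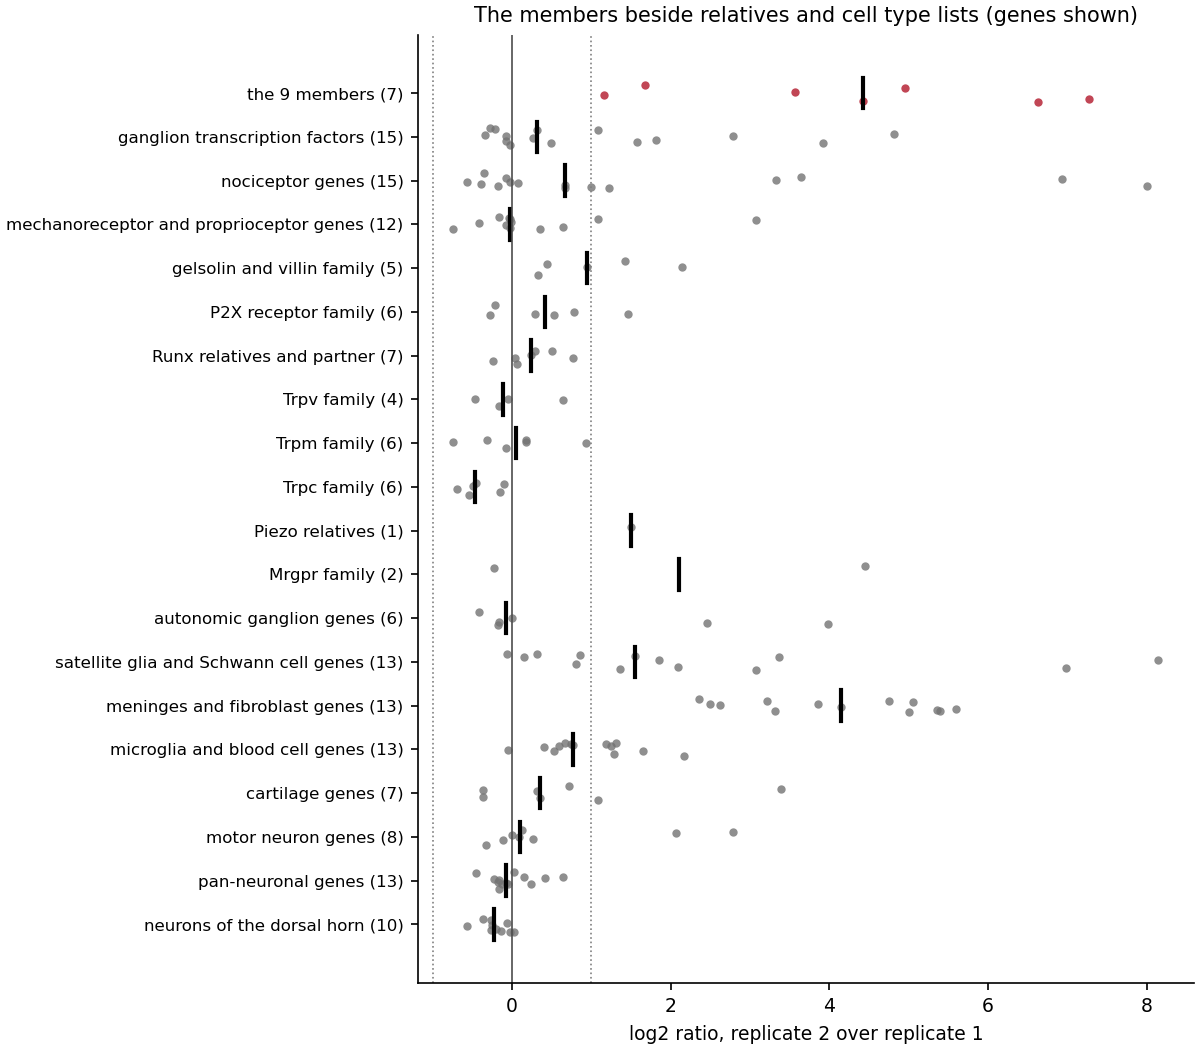
Log2 ratio of replicate 2 to replicate 1 for the genes of each list with a mean count of at least 10 (number in parentheses), with the list median as a black bar and dotted lines at 2-fold. The 7 genes of the top row (red) have a median of 4.43, the meninges and fibroblast list 4.15 and the pan-neuronal list -0.08.

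Among 12166 protein-coding genes outside the Y chromosome with a mean count of at least 100, the 10 whose log2 ratio lay nearest to 4.43, all within 0.29, included Gjb6, Slc38a4, Cdh1, Islr, Postn, Gjb2, Pcolce, Lox and Aebp1. The measure compares a single ratio from 2 libraries. The ratios of those named ran from 17.8 for Aebp1 to 25.2 for Lox, a collagen cross-linking enzyme. Postn, a matrix protein, had the highest level, at 64.24 TPM in replicate 2 and 4.15 TPM in replicate 1. None of the 10 stands in any of the lists used here.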

How the data were processed

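Total RNA libraries of 2 mouse neural tubes were compared, from gene and transcript tables that the deposited texts tie to mm10 and GENCODE release M4; the sources used here do not name the aligner, quantifier or strand setting. Per the file headers, the authors deposited expected counts (estimated, unnormalised), TPM, FPKM, percent of gene TPM per transcript, and score columns (posterior mean TPM with bounds). Symbols and coordinates (1-based) come from GENCODE release M21, and promoters from RefSeq (GRCm38.p6). Of 43346 gene rows, 42462 matched a symbol.

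Expected counts were rounded. Ratios had a prior count of 0.5 and TMM sizes (edgeR 4.0.16 in R 4.3.3). Fold intervals are Clopper-Pearson on the raw pair and TPM intervals exact Poisson, both 95%, and cover counting error only, as does the floor of 3 counts. Python 3.11.15 ran the rest, with SciPy 1.17.1, pandas 2.3.3, NumPy 2.4.6 and, for plots, matplotlib 3.10.9, and the ratio step was tested on simulated data. With 1 group of 2 libraries no test was possible. The genes and lists were chosen with earlier results of these data known. Named besides the 9 genes were, per list, the 3 largest ratios and the smallest at a mean count of at least 10, close relatives, and 10 genes of like ratio. Some genes named by this rule are not reported here, though counts and medians include them. P2rx2, Npy, Hand2, Cd3e, Gata1 and Matn1 were named after their values were seen. Drgx was found as Prrxl1 by its RefSeq synonym. Alternatives covered DESeq2 1.42.0 size factors, other scalings, units, priors, thresholds and filters.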

Additional observations from a re-analysis of the deposited data

How the results depend on the processing

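No paired analysis was possible because there was 1 group. The count of genes at least 2-fold higher in replicate 2, 7 under the settings used, was 5 to 7 under all alternatives tried. It was 6 by deposited TPM or FPKM and 5 by posterior mean TPM or at a 4-fold threshold. The median log2 ratio stayed between 2.61 (posterior mean TPM) and 4.98 (spike-in scaling), and was 4.26 over the 4 genes at a mean count of 100, which drops Runx3, Trpv1 and Trpa1. The median at a mean count of 10 is the value of Runx3, which had 26 counts in all. By posterior mean TPM the log2 ratio of Runx3 was 0.77, under 2-fold, since that estimate puts Runx3 at 1.66 TPM in replicate 2 and 0.93 TPM in replicate 1. Of the 9 genes, 5 lay outside their counting interval by FPKM (Avil, P2rx3, Runx1, Runx3 and Trpv1) and the same 5 by posterior mean TPM, lower each time and still positive. The log2 ratio of Trpm8 turned, with -0.51 under the settings used, 0.04 under spike-in scaling and 0.14 by posterior mean TPM. The other 8 stayed positive under all settings tried. The share of all rows at least 2-fold higher in replicate 2 was 12.50% with every row of at least 1 count and 3.06% at a mean count of 100. The count of genes at 1 TPM in replicate 2, 5 by TPM, was 6 by posterior mean TPM. Of the 19 other lists, the count at 2-fold moved by over 1.5 times in 7 under spike-in scaling, 7 at a mean count of 100 and none under DESeq2 size factors. Under spike-in scaling 14.0% of all rows were at least 2-fold higher in replicate 2, and 94.4% of rows past 2-fold in either direction lay that way, against 64.8%. With 1 library a side, leaving out a replicate leaves no ratio. At these depths Trpa1, Mrgprd and Trpm8 could not be told apart between the libraries.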
